A study of Mus musculus with 9 samples.

Results

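Collagens, the enzymes and chaperones that process them, and the glycoproteins and mineral-associated proteins of bone matrix were followed in mouse OB-6 cells, an established osteoblastic line of bone marrow origin, during the first hour of treatment with parathyroid hormone (PTH). They were chosen by gene symbol: collagen chains (Col and a digit), names that start with Lox, Plod, P4ha, Fbn or Thbs, and the named genes Serpinh1, Pcolce, Sparc, Spp1, Ibsp, Fn1, Postn, Mgp, Dmp1, Alpl and Phex. This took 67 of the 12488 probe sets of the array, for 49 of 8251 genes, of which 13 had several probe sets. Spp1 had no probe set with a single symbol and was not analysed here. Total RNA was measured on 9 1-colour arrays, 3 each (replicates a, b and c) at 0, 30 and 60 min of PTH, with 0 min as the basal group. No untreated cultures of 30 or 60 min are among these arrays, so an effect of PTH cannot be told apart from elapsed time or handling. The labels give neither the PTH dose nor whether the 3 replicates were separate cultures. A p-value here sets a difference between times against the scatter of these arrays, and that scatter may be only technical. OB-6 is a single line, and bulk RNA cannot tell fewer expressing cells from less RNA per cell.

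Osteoblasts build bone by secreting a matrix that is mostly type I collagen, made of chains from Col1a1 and Col1a2, and by depositing mineral on it. The chains are hydroxylated and folded in the endoplasmic reticulum with the help of P4ha, Plod and Serpinh1, trimmed outside the cell with the help of Pcolce and cross-linked by lysyl oxidases of the Lox family. PTH acts on osteoblasts through a receptor coupled to cAMP, and over longer treatments than these it is known to lower collagen synthesis in osteoblast cultures.

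The test took probe sets with an intensity over 44.69, the 40th percentile of all values, on 3 or more of the 9 arrays. Of the 67 probe sets, 50 passed, for 37 genes. The other 17 stayed dim, with a highest single value of 48.001. Their number includes the only probe sets of 12 genes: Col2a1, Col11a2, Col4a3, Col4a4, Col10a1, Col15a1, Col13a1, Col14a1, Col17a1, Col19a1, Col22a1 and Phex. Col2a1, the main collagen of cartilage, read 7.60 to 24.7 across the 9 arrays, and Phex, an endopeptidase of osteocytes and osteoblasts, 4.40 to 19.0. Among 11 osteoblast markers 6 had a probe set with a single symbol. Col1a1, Col1a2, Alpl, Ibsp and Dlx5 were tested, whereas the PTH receptor gene Pth1r read 6.70 to 41.6 and was not. Dlx5, a transcription factor of osteoblasts, rose by 0.52 on the log2 scale at 60 min (limma adjusted p = 0.0247). Markers of other cell types were mostly dim. Of 9 chondrocyte, 7 adipocyte, 6 endothelial, 8 haematopoietic and osteoclast and 7 skeletal muscle markers, 1, 2, 1, 4 and 3 genes were tested. Cd34 reached 1252 and Ctsk 734.2. The muscle gene Ckm rose at 60 min and no other tested marker of these 5 lists changed in limma; the summed level of the muscle list was 310.7 to 441.3 at 60 min, against 232.8 to 339.2 at 0 min, and its part in the results was not tested. All 6 tested probe sets of Fos, Egr1, Nr4a1, Junb and Dusp1, listed as early response genes, rose in limma at both 30 and 60 min. Of all tested probe sets, 0.482% rose at 30 min and 4.35% at 60 min.

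Upstream sequences are shown because they belong to the genes on which the results turn: Postn, which fell, Col11a1 and Ibsp, which had the largest differences in their groups short of the threshold, and Col1a2, the partner chain of Col1a1. They are the 250 bases before an annotated start in RefSeq on GRCm38.p6, all on the plus strand, read 5′ to 3′. For Postn the downstream of its 2 starts in the table is shown. Of the 49 genes, 35 had a start in the table. Capitals mark, on either strand, a TATA box, a CCAAT box, an AP-1 site or the first bases of a cAMP response element; the letters searched are spelled out with the counts.
Postn, chr3:54360857-54361106: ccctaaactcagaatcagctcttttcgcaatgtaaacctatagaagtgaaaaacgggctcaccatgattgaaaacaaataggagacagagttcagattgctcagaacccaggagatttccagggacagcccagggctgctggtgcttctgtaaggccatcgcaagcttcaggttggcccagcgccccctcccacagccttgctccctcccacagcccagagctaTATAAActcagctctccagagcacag
Col11a1, chr3:114030290-114030539: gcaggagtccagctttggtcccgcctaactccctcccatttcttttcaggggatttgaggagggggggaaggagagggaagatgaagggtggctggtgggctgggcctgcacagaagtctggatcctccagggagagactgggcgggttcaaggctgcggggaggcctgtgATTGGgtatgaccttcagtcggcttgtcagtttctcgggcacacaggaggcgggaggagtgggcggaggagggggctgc
Col1a2, chr6:4505368-4505617: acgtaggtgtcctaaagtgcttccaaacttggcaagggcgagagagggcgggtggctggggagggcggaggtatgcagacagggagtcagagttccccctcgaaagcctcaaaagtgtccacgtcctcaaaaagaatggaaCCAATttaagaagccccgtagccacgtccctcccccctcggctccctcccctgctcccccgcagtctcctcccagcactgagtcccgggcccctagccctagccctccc
Ibsp, chr5:104299037-104299286: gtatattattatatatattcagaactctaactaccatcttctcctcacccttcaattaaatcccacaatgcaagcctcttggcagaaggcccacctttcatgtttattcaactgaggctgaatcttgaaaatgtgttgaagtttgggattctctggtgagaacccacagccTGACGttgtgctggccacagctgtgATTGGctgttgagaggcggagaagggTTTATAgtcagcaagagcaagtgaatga

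The Postn window holds a TATA box whose first base lies at -26 from the start. The Col1a2 and Col11a1 windows each hold 1 CCAAT box, at -109 and, on the minus strand, at -79. In the Ibsp window TGACG, the first part of a cAMP response element, at -79 stands ahead of a CCAAT box at -54 and a TATA box at -28, both on the minus strand. Over the 41 starts of the member genes, TATAAA occurred in 9 (22%), against 12.4% of all 32851 starts of the table, CCAAT in 15 (36.6%), against 33.8%, and TGACG in 7 (17.1%), against 17.8%. The full cAMP response element TGACGTCA, which contains TGACG, occurred in 0 of 41, against 1.55%, and the AP-1 site TGANTCA in 1 of 41 (2.44%), against 6.75%. These are matches of letters in a short window and show no binding.

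Few of the matrix genes passed the test in the first hour of PTH. After 60 min, 2 of the 50 tested probe sets passed the threshold of a limma adjusted p under 0.05, where 13.1% of all 7884 tested probe sets did. Postn fell, where 8.73% of all fell, and 1 of the 2 probe sets of Col1a1 rose, where 4.35% of all rose. An unadjusted p under 0.05 at 60 min was found for 14 of 50, against 32.8%, 5 of them higher, against 14.5%, and 9 lower, against 18.4%. After 30 min 0 of 50 passed in limma, against 0.939% of all (0.482% higher and 0.457% lower), and 9 of 50 had an unadjusted p under 0.05, against 17.9%. All 9 were lower at 30 min, where 9.75% of all were lower and 8.16% higher. Dmp1, counted among those lower at 30 and at 60 min, entered the test only through its 0 min arrays. Between 60 and 30 min 0 of 50 passed in limma, against 0.0254%. An unadjusted p under 0.05 was found there for 9 of 50, against 9.07%, with 7 higher, against 4.13%, and 2 lower, against 4.93%. Log2 fold changes here and below are differences of log2(intensity + 11.8), with their standard error (SE), and they understate changes of dim probe sets. An exact permutation of 3 and 3 arrays cannot reach a p under 0.1, so none is given.

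**Figure D1:**
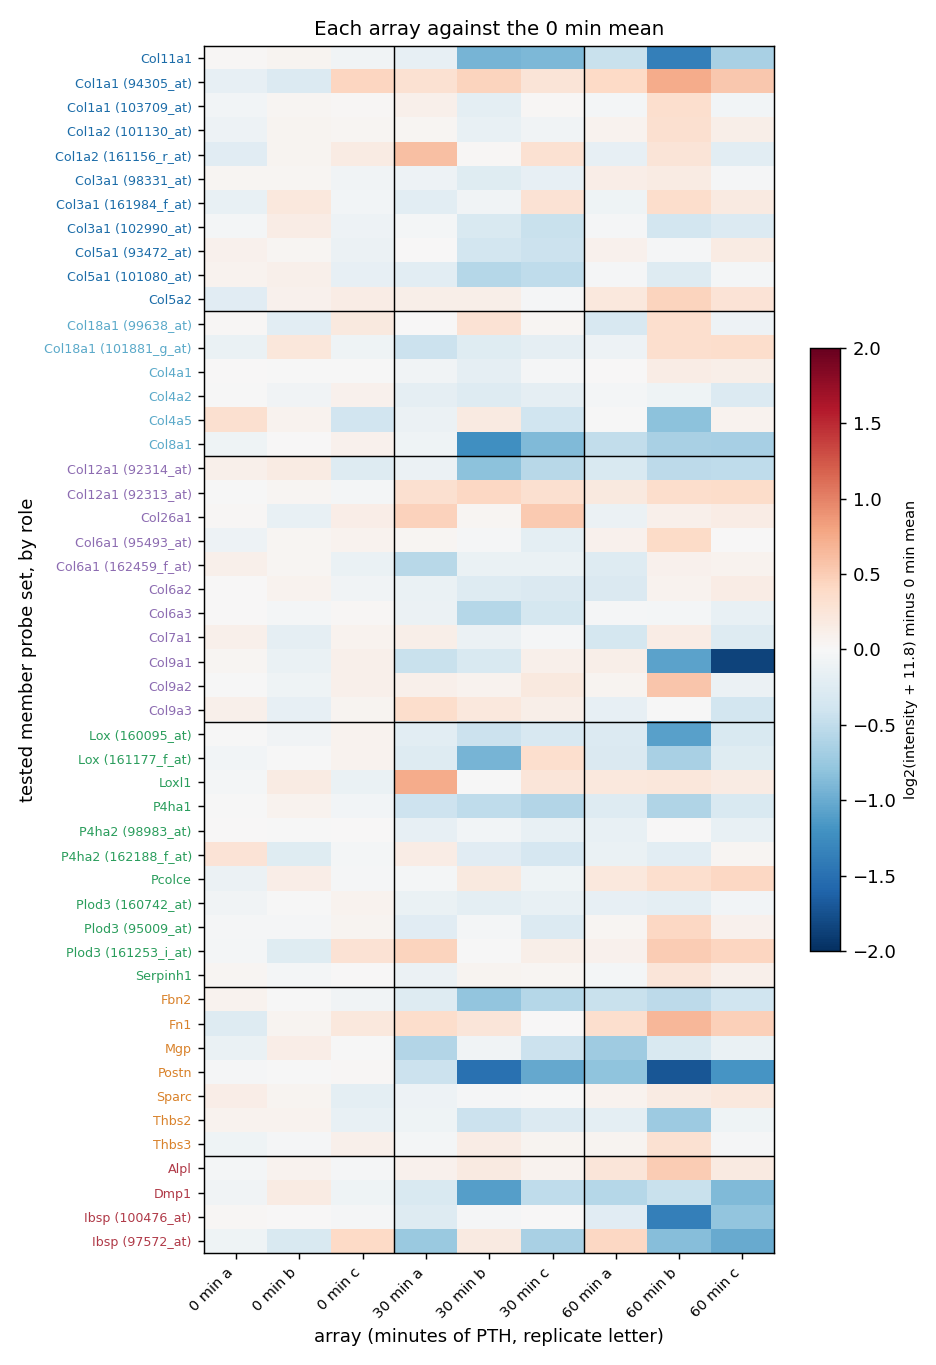
Heat map of the 50 tested probe sets (rows, grouped and coloured by role, with the probe set in brackets where a gene has several) on the 9 arrays (columns); colour gives log2(intensity + 11.8) minus the 0 min mean of that probe set. Postn is lower on all 6 PTH arrays, and most other rows are pale.

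Among the matrix glycoproteins, Postn encodes periostin, a protein of periosteum and other collagen-rich tissues that binds collagen. Its intensity was 3851, 3872 and 3976 at 0 min, 2878, 1376 and 1919 at 30 min and 2235, 1180.3 and 1709 at 60 min. All 6 arrays with PTH lay below all 3 at 0 min, and replicate a was the highest of its group at both later times. Periostin RNA at 60 min was 0.426 times that at 0 min (limma adjusted p = 0.0179), and the log2 fold change was -1.23 with an SE of 0.26 and a 95% interval of -1.81 to -0.66. At 30 min the log2 fold change was -0.98 (SE 0.26) with a limma adjusted p of 0.101, a value that passed in 2 of 9 fits that each left out an array. The fall at 60 min passed in 6 of those 9 fits. It missed the threshold without 0 min replicates a, b or c, with adjusted p of 0.0704, 0.0704 and 0.0622. In the whole range of these fits the log2 fold change lay between -1.45 and -0.99.

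The other glycoproteins differed by less. Fn1, which encodes fibronectin, read 464, 581 and 649.9 at 0 min, 718, 667 and 559.9 at 30 min and 706, 889 and 786 at 60 min. The 60 min arrays all lay above those at 0 min, while those at 30 min overlapped them. Its log2 fold change at 60 min was 0.49 (SE 0.15, 95% interval 0.15 to 0.82) with a limma adjusted p of 0.0569. Fbn2, encoding a fibrillin of microfibrils, read 145, 136 and 149.6 at 60 min, against 212, 201 and 191 at 0 min, and had a log2 fold change of -0.46 (limma adjusted p = 0.0671). Sparc, also called osteonectin, is an abundant glycoprotein of bone that binds collagen and calcium. It read 3704, 3505 and 2959 at 0 min, 3130.1, 3302 and 3371 at 30 min and 3544, 3790.1 and 3905 at 60 min. The 60 and 0 min arrays of Sparc overlapped, and the 95% interval of its log2 fold change, -0.07 to 0.37, excluded a 2-fold change; the value was 0.15, and -0.05 after quantile normalization. Mgp, an inhibitor of calcification, and the thrombospondin genes Thbs2 and Thbs3 lay between -0.38 and 0.11 at 60 min.

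**Figure D2:**
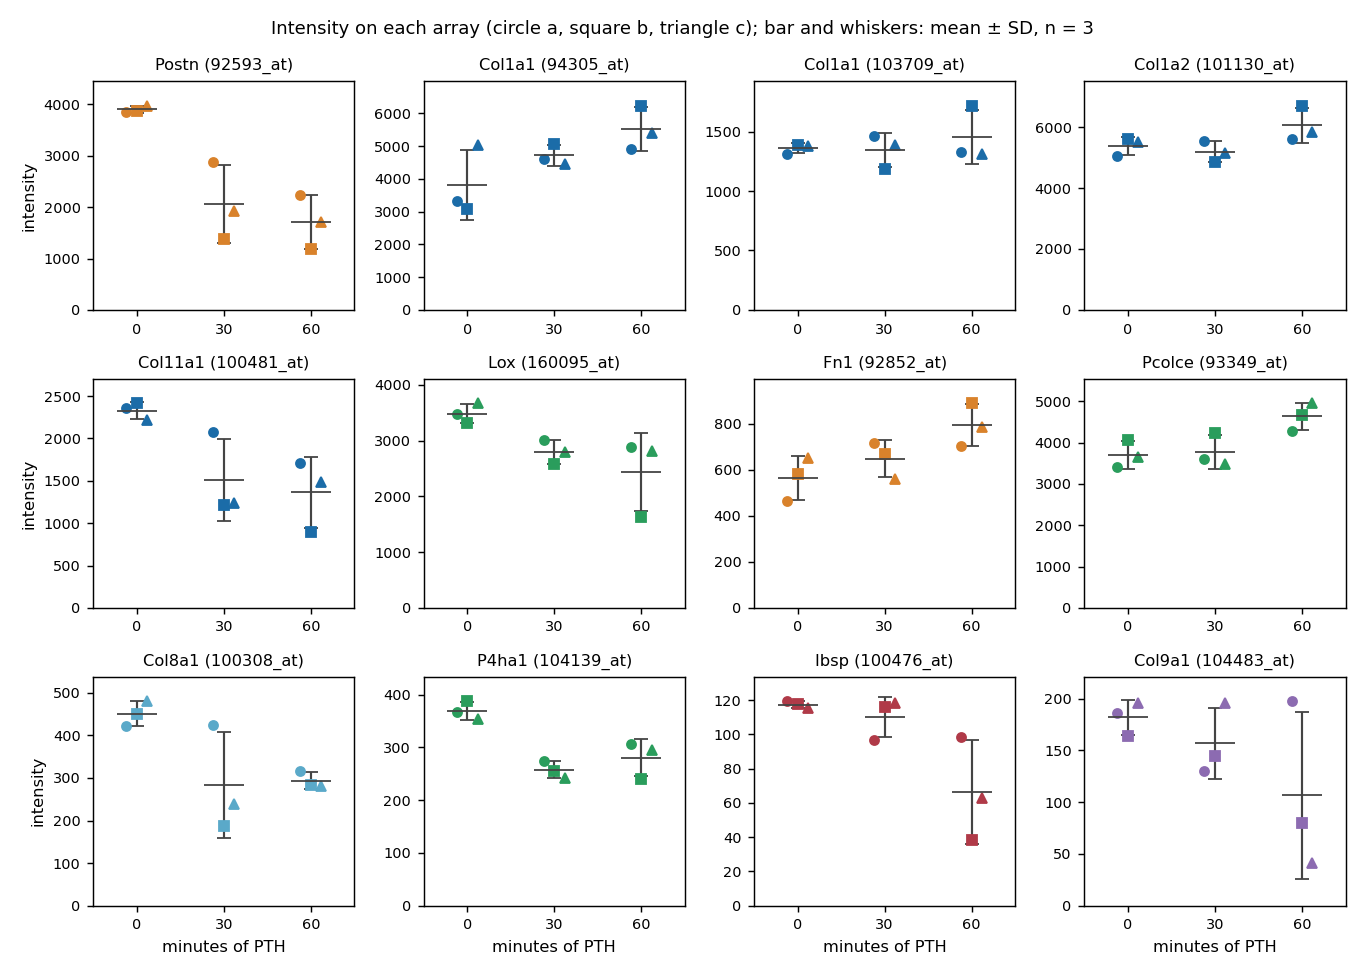
Intensity (linear axis from 0) of 12 probe sets at 0, 30 and 60 min of PTH; symbols are single arrays (circle a, square b, triangle c), and the bar with whiskers is the mean ± SD of 3 arrays. Postn averaged 1708 at 60 min, against 3899.7 at 0 min, and the 94305_at probe set of Col1a1 overlaps between those times because 0 min replicate c read 5025.

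Among the fibrillar collagens, 1 probe set of type I collagen passed the threshold and the others did not. Differences between these probe sets were not tested. The Col1a1 probe set 94305_at read 3318, 3083 and 5025 at 0 min, 4615, 5067 and 4464 at 30 min and 4908, 6234 and 5412 at 60 min. Replicate c at 0 min lay above replicate a at 60 min, so the groups overlapped. At 60 min it was 1.48-fold higher, 0.56 on the log2 scale with an SE of 0.17 and a 95% interval of 0.19 to 0.93 (limma adjusted p = 0.0499). With an array left out this call stood in 2 of 9 fits, those without 0 min replicate c and without 60 min replicate a, and was lost in the 7 others at adjusted p up to 0.172. It was also lost after quantile normalization, at 0.33 with an adjusted p of 0.148, and after cyclic loess, at 0.33 with 0.160. The second Col1a1 probe set, 103709_at, read 1329.8, 1719 and 1312 at 60 min, against 1314, 1391 and 1375 at 0 min, with a log2 fold change of 0.08 (95% interval -0.20 to 0.36).

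Col1a2, the partner chain, read 5039, 5607 and 5511 at 0 min, 5549, 4868 and 5149 at 30 min and 5619, 6705 and 5849 at 60 min on its probe set 101130_at. The 60 min arrays lay just above those at both earlier times. At 60 min it stood at 0.17 on the log2 scale (95% interval -0.04 to 0.38, limma adjusted p = 0.251), and at -0.08 after quantile normalization. The other Col1a2 probe set stood at -0.04, with overlapping arrays. Neither chain of type I collagen had both probe sets past the threshold.

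Col11a1, a chain of type XI collagen that seeds thin fibrils, showed the largest difference among the fibrillar chains. It read 2356, 2414 and 2213 at 0 min, 2074, 1217 and 1238 at 30 min and 1707, 894 and 1487 at 60 min. Every array with PTH lay below every array at 0 min, and replicate a was again nearest to them. Its log2 fold change of -0.82 at 60 min (SE 0.25, 95% interval -1.36 to -0.28) had a limma adjusted p of 0.0512, and 8 of its 19 alternatives fell under 0.05; without 60 min replicate b it was -0.54 (adjusted p = 0.126). Col5a2, a chain of type V collagen, which is built into type I fibrils, read 4640.3, 5484 and 4847 at 60 min, against 3454, 4255 and 4442 at 0 min, with a log2 fold change of 0.31 (limma adjusted p = 0.0899), and 0.03 after quantile normalization (adjusted p = 0.795). Both probe sets of Col5a1, the chain that pairs with it, lay between -0.43 and -0.26 at 30 min and between -0.10 and 0.07 at 60 min. The 3 probe sets of Col3a1, type III collagen, lay between -0.22 and 0.15. Over the 11 tested probe sets of fibrillar chains the median log2 fold change was 0.08 at 60 min and -0.05 at 30 min.

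Network-forming and basement membrane collagens were represented by 6 tested probe sets. Col4a1 and Col4a2, the chains of the common type IV network, differed little at 60 min, with log2 fold changes of 0.09 and -0.13 and 95% intervals of -0.13 to 0.31 and -0.36 to 0.10. Col8a1, a short-chain network collagen, read 421, 451 and 479.7 at 0 min, 424, 186 and 238 at 30 min and 317, 283 and 280.3 at 60 min. At 60 min all 3 arrays lay below those at 0 min, whereas at 30 min replicate a read within them. The log2 fold changes were -0.73 (SE 0.23) at 30 min and -0.60 (SE 0.23) at 60 min, with limma adjusted p of 0.153 and 0.107. Without 30 min replicate a the 30 min value was -1.05 (adjusted p = 0.00475), and without 30 min replicate b it was -0.48 (adjusted p = 0.371). Col4a5 stood at -0.25 at 60 min, and the 2 tested probe sets of Col18a1, whose product carries endostatin, at -0.03 and 0.19.

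Of the other collagens, Col9a1 had the widest spread. It read 197, 80.3 and 41.7 at 60 min, against 186, 163 and 196 at 0 min. Replicate a at 60 min was the highest of all 9 arrays and replicate c the lowest, so the log2 fold change of -0.94 (95% interval -1.79 to -0.08, limma adjusted p = 0.123) was an average of unlike arrays, and it was -1.46 with an adjusted p of 0.00914 without that replicate a and -0.48 with 0.315 without replicate c. Col9a1 stands in the chondrocyte marker list. The summed level of the other 6 genes of that list was 69.6 to 74.99 at 0 min, 51.5 to 140.7 at 30 min and 67.59 to 75.31 at 60 min. All 6 were too dim to be tested, and their relation to the Col9a1 values was not tested. Type VI collagen, a microfibrillar collagen around cells, kept close to its start at 60 min. The log2 fold changes were 0.16 and -0.04 for the probe sets of Col6a1 and -0.07 for Col6a3, and after quantile normalization the first of these was -0.14 and that of Col6a3 -0.22. At 30 min Col6a3 read 2753, 2023 and 2339.5, against 3017, 2927 and 3066 at 0 min, all below them, with a log2 fold change of -0.35 (limma adjusted p = 0.153). The 2 probe sets of Col12a1, which decorates type I fibrils, stood on opposite sides of 0. At 60 min 92313_at lay wholly above its 0 min arrays (0.30) and 92314_at wholly below (-0.45), with limma adjusted p of 0.302 and 0.163. The probe set 92313_at passed the dim filter only through its PTH arrays, so its place above 0 min is partly set by that filter.

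**Figure D3:**
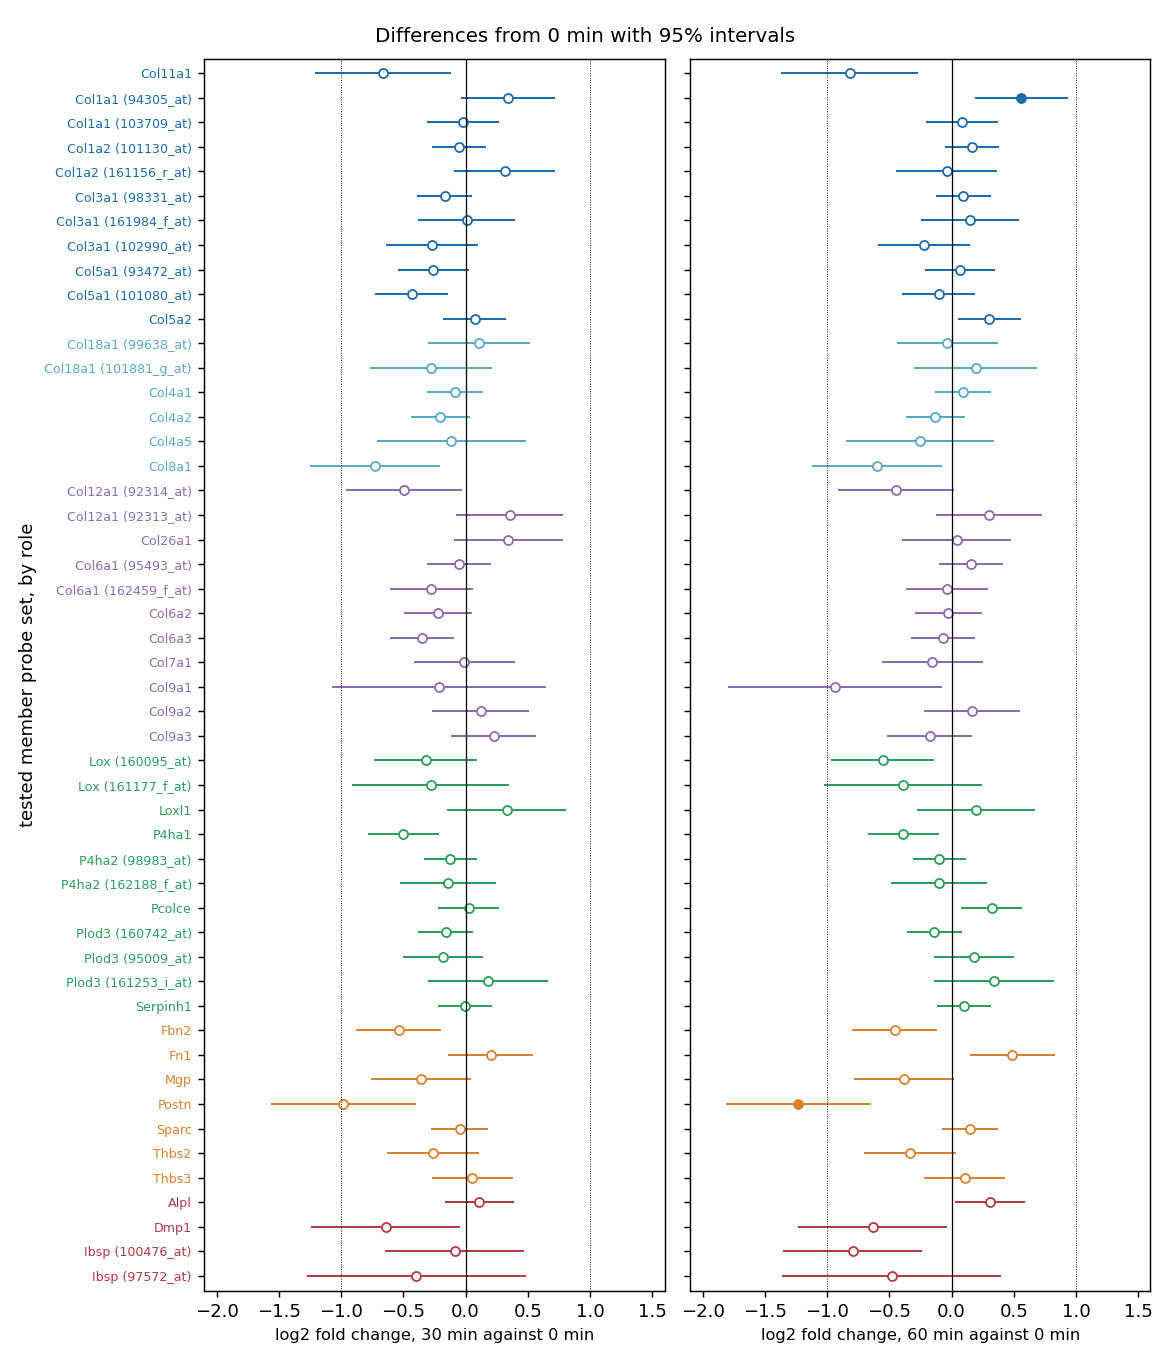
Log2 fold change (dot) with its 95% interval (line) for the 50 tested probe sets, 30 against 0 min on the left and 60 against 0 min on the right; filled dots have a limma adjusted p under 0.05, dotted lines mark a 2-fold change and colours the roles. Filled dots occur for Postn and 1 Col1a1 probe set at 60 min, and 42 of 50 intervals at 60 min lie inside the dotted lines.

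Enzymes and helpers of collagen maturation made up 11 tested probe sets for 7 genes. At either time 0 passed the limma threshold, against 0.939% of all at 30 min and 13.1% at 60 min. The unadjusted limma p was under 0.05 for P4ha1 at both times and for Lox and Pcolce at 60 min. Of all tested probe sets, 17.9% had such a p at 30 min and 32.8% at 60 min. Lox, lysyl oxidase, starts the cross-linking of collagen and elastin. Its probe set 160095_at read 3473, 3322 and 3669 at 0 min, 3009, 2574 and 2794 at 30 min and 2886, 1637 and 2811 at 60 min. All PTH arrays were lower than those at 0 min, and 60 min replicate b was the lowest by a wide margin. At 60 min it stood at -0.55 on the log2 scale, SE 0.18 (limma adjusted p = 0.0692), and at -0.29 without that array. After quantile normalization it fell by 0.72 (adjusted p = 0.0355). The second, dimmer Lox probe set, 161177_f_at, stood at -0.28 at 30 min with overlapping arrays (limma adjusted p = 0.609). At 60 min it was -0.39, with all arrays below those at 0 min (adjusted p = 0.372). P4ha1, a catalytic subunit of prolyl 4-hydroxylase, read 275, 255 and 242 at 30 min, against 368, 387 and 353 at 0 min. This was 0.706 times the level at the start, or -0.50 on the log2 scale with an SE of 0.13 (limma adjusted p = 0.0840), and the 60 min arrays also lay below at -0.39 (adjusted p = 0.0641).

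Pcolce enhances the cleavage of procollagen. It read 3399, 4073 and 3643 at 0 min, 3613, 4226 and 3473 at 30 min and 4291, 4669 and 4946 at 60 min, with all 60 min arrays above the rest. Its difference of 0.32 at 60 min had a 95% interval of 0.09 to 0.56 (limma adjusted p = 0.0671), and it was 0.07 after quantile normalization (adjusted p = 0.609) and 0.10 after cyclic loess (0.422). Serpinh1, the collagen chaperone HSP47, read 3389.8, 4122 and 3725 at 60 min, against 3563, 3409 and 3488 at 0 min, overlapping, with a log2 fold change of 0.10 (95% interval -0.11 to 0.31) that turned to -0.12 after quantile normalization. The 2 P4ha2 and 3 Plod3 probe sets and Loxl1 stood between -0.14 and 0.34 at 60 min.

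Of the genes tied to mineral, 4 probe sets were tested and 0 passed in limma, against 0.939% of all at 30 min and 13.1% at 60 min. The unadjusted limma p was under 0.05 for Dmp1 at both times and for Alpl and 1 Ibsp probe set at 60 min. Of all tested probe sets, 17.9% had such a p at 30 min and 32.8% at 60 min. Alpl, the alkaline phosphatase that frees phosphate for mineral, read 227, 245 and 230.4 at 0 min, 249, 265 and 247 at 30 min and 279, 338 and 267 at 60 min. No array of one time overlapped another time, and the log2 fold change at 60 min was 0.31 (SE 0.12, 95% interval 0.04 to 0.58) with a limma adjusted p of 0.111. Ibsp, bone sialoprotein, read 119, 118 and 115 at 0 min, 96.5, 116 and 118 at 30 min and 98.7, 38.2 and 62.8 at 60 min on its probe set 100476_at. All 60 min arrays lay below those at 0 min, but by very different amounts. The log2 difference at 60 min was -0.80 with an SE of 0.25 (limma adjusted p = 0.0576). It was -1.08 without 60 min replicate a (adjusted p = 0.0109) and -0.51 without replicate b (0.132), and the second Ibsp probe set stood at -0.48 with overlapping arrays, or at -0.93 without replicate a. Dmp1, a matrix protein of osteocytes and the 1 tested gene of a list of 5 osteocyte markers, read 43.6, 20.001 and 36.4 at 30 min and 34.3, 38.6 and 25.4 at 60 min, against 53.4, 64.7 and 52.9 at 0 min. All of its PTH arrays lay below the 0 min arrays, with log2 fold changes of -0.64 and -0.63 and limma adjusted p of 0.239 and 0.130. Dmp1 passed the dim filter only through its 0 min arrays. Its lower place with PTH is therefore partly set by that filter, and no support is drawn from it.

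Over the whole group, 35 of the 50 probe sets had a log2 fold change below 0 at 30 min, against 43.0% of all tested, and the median was -0.13, against 0.05 over all tested. The 30 min arrays lay wholly below those at 0 min for 16 of 50, against 15.3% of all, and wholly above for 3 of 50, against 15.3%, so that 19 of 50 did not overlap, against 30.6%. At 60 min 28 of 50 were below 0, against 46.6%, and the median was -0.04, against 0.03 over all; after scaling to the 75th percentile these medians were 0.03 and 0.10, and after quantile normalization -0.08 and 0.08. The arrays lay wholly below for 11 of 50, against 20.7%, and wholly above for 7 of 50, against 20%, 18 of 50 in all, against 40.7%. Between 60 and 30 min 17 of 50 were below 0, against 57.5%, and the median was 0.06, against -0.05 over all. There 9 of 50 lay wholly above, against 5.06%, and 1 of 50 wholly below, against 6.49%, 10 of 50 in all, against 11.6%. The comparisons with 0 min share those 3 arrays, and the comparisons with 30 min share the 30 min arrays. The counts against 0 min include Dmp1, which entered the test only through its 0 min arrays. They also include the Col12a1 probe set 92313_at, which entered only through its PTH arrays. For 44 of 50 probe sets at 30 min and 42 of 50 at 60 min the 95% interval lay within a 2-fold change either way, against 82.1% and 76.8% of all tested, and between 60 and 30 min this held for 48 of 50, against 87.1%.

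Single arrays moved several of these values. The median correlation of 60 min replicate b with the other arrays was 0.938, against 0.954 to 0.967 for the rest. Of the 11 probe sets wholly below at 60 min, 8 had their lowest 60 min value on replicate b, and of the 7 wholly above, 5 had their highest value there. Of all probe sets wholly below, 82.3% had their lowest value there, and of all wholly above, 72% had their highest. Without 60 min replicate a, 9 of 50 probe sets passed at 60 min, against 20.3% of all tested in that fit. Without 0 min replicates a or b, 0 passed in limma, against 0.884% and 1.28% of all. At 30 min 5 probe sets passed without 30 min replicate a, those of Postn, Col8a1, Fbn2 and Col6a3 and 1 of Col5a1, all lower, where 3.16% of all tested in that fit were lower. The part of these arrays in the differences was not tested.

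**Figure D4:**
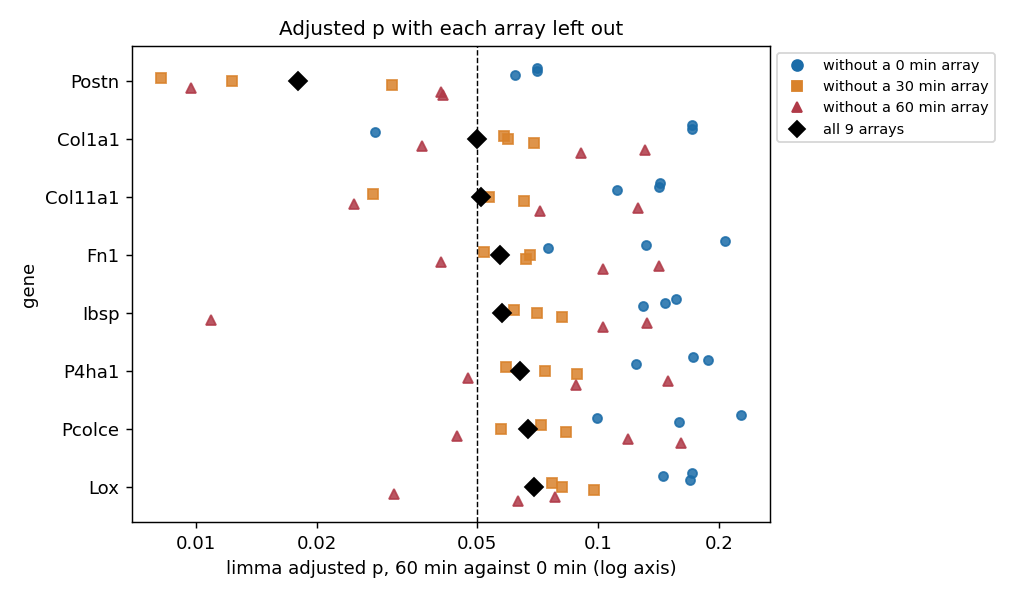
Limma adjusted p for 60 against 0 min (log axis) of 8 genes with all 9 arrays (black diamond) and with each array left out (coloured symbols by the time of that array); the dashed line marks 0.05. Postn stays under the line in 6 of 9 such fits, and the circles, which leave out a 0 min array, are mostly on the right.

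Further lists of matrix genes were counted beside these. Of 30 tested probe sets for collagen folding, secretion, cleavage and receptors (23 genes), 0 changed in limma at 30 min, where 0.939% of all did. At 60 min 1 fell, where 8.73% of all fell. That was Ddr2, a receptor tyrosine kinase for fibrillar collagen, with a log2 fold change of -0.88 (limma adjusted p = 0.00912). The chaperone genes Hspa5 and Hsp90b1 stood at -0.52 and -0.79 with adjusted p of 0.153 and 0.0581, and Crtap and Ppib, parts of the prolyl 3-hydroxylation complex, at 0.09 and 0.24. Of 35 tested probe sets of other bone and connective tissue matrix genes (28 genes), 1 fell at 30 min, where 0.457% of all fell, and 2 fell at 60 min, where 8.73% did. Those at 60 min were Omd, osteomodulin, at -1.93 (adjusted p = 0.0145), and 1 probe set of Ogn, osteoglycin, at -1.27 (limma adjusted p = 0.00912), which was also the one that fell at 30 min, at -1.13. The second Ogn probe set stood at -0.18 at 60 min. The medians of these lists at 60 min were -0.15 and -0.07. The calls of Ddr2, Omd and Ogn, and those of Dlx5 and Ckm above, are from the fit of all 9 arrays alone. In that fit 13.1% of all tested probe sets passed at 60 min. Without 0 min replicate a, b or c, 0.884%, 1.28% and 3.13% did.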

How the data were processed

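Per the file headers and the labels, the authors deposited 1 table with 1 linear intensity per probe set and array; the software behind it is not given in the sources used here. After taking 2% off each end, the array means were 249.9 to 250.0, so the intensities were used as scaled. Gene symbols came from the platform annotation; 10833 probe sets had 1 symbol, 396 several and 1193 none, without the 66 control probe sets. All 67 members matched the GRCm38.p6 gene table.

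Intensities became log2(intensity + 11.8), the 20th percentile of all values. The dim filter kept 7884 probe sets. One limma 3.58.1 fit in R 4.3.3 (a mean per time, variance trend, 6 residual and 4.68 prior degrees of freedom) covered all 9 arrays, with Benjamini-Hochberg adjustment over all tested probe sets. The fit was also run on simulated data whose noise was independent between arrays and between probe sets. Such data cannot show how the fit fares where an array deviates as a whole. Precision is limited by the number of arrays.

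Named members passed a test, were among the 3 largest 60 min differences or the 2 brightest of their role group, were other probe sets of such a gene, or belonged to a fixed set (Col1a1, Col1a2, Sparc, Spp1, Alpl, Ibsp, Postn, Fn1); others are given by range, besides Mgp, Ddr2 and the chaperones, Ogn and Omd, and neighbours in the genome, chosen with values seen. Members, lists and alternatives (constants, filters, scalings, variance model, pairwise fits, replicate block, arrays left out) were chosen with earlier results of these data known. Figures used matplotlib 3.10.9.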

Additional observations from a re-analysis of the deposited data

How the results depend on the processing

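The number of members past the threshold at 60 min, 2 in the reported fit, was 1 with a constant of 1 (12.3% of all tested probe sets passed), 1 without the dim filter (5.25%), 1 without a variance trend (9.12%) and 4 in a fit of those 2 times alone (13.1%). It was 3 with a constant of 50 (14.3%) and with the filter on all arrays (14.3%). The number was also 3 after quantile normalization (12.8%), 75th percentile scaling (14.6%) and cyclic loess (10.8%). Quantile normalization and cyclic loess each lost the Col1a1 call and gained Lox and Col11a1, while 75th percentile scaling gained Fn1. At 30 min it was 2 in a fit of those 2 times alone (5.07% of all), against 0. With 1 array left out the number ranged from 0 to 9 at 60 min (0.884% to 20.3% of all) and from 0 to 5 at 30 min (0.205% to 7.35%). With the replicate letter as a block it was 5 at 60 min (18.3% of all) and 1 at 30 min (3.29%). Same-lettered arrays at 30 and 60 min had deviations correlated at 0.304, 0.251 and 0.0224 for a, b and c. Pairs of these times with different letters had -0.266 to 0.0523, and same-lettered pairs with a 0 min array -0.128 to 0.0776. The labels state no pairing, and the reported fit used none. Between 60 and 30 min the number of members past the threshold was 0 in every alternative run. Postn was called lower at 60 min in 16 of 19 alternatives and the Col1a1 probe set 94305_at higher in 6 of 19. Of 1735 values of the 31 named and tested probe sets under the alternatives, 16 lost a call, 33 gained one, 56 others moved by more than 1 SE of the reported value and 0 changed sign with a call on either side; 69 changed sign without a call. The causes were not tested. Intensities near the dim filter, such as those of Dmp1, limit what could be seen there.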

Other observations

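Several of these genes lie next to each other in the mouse genome with no other protein-coding gene between them, and neighbours could be set side by side at 60 against 0 min. Col3a1 and Col5a2 are neighbours on chromosome 1, and their log2 fold changes were -0.22 to 0.15 over the 3 probe sets of Col3a1 and 0.31 for Col5a2. Col4a1 and Col4a2, next to each other on chromosome 8, stood at 0.09 and -0.13. On chromosome 10, Col6a2 stood at -0.03 and Col6a1 at 0.16 and -0.04 on its 2 probe sets. Dmp1 and Ibsp, neighbours on chromosome 5, stood at -0.63 for Dmp1 and at -0.80 and -0.48 for the 2 probe sets of Ibsp. Dmp1 had entered the test only through its 0 min arrays. No pair had both genes past the threshold, and no difference within a pair was tested.

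Of the 11 genes with several tested probe sets, 4 had all of them on 1 side of 0 at 60 min: Col1a1, Ibsp, Lox and P4ha2. The widest gap between probe sets of a gene was 0.75 on the log2 scale, for Col12a1, and the narrowest 0.00354, for P4ha2. The Col12a1 probe set 92313_at had entered the test only through its PTH arrays.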
